A study of Mus musculus with 32 samples.

Results

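The genes described here are 10 genes by which Kupffer cells, the resident macrophages of the liver sinusoids, are recognised: *Clec4f*, *Vsig4*, *Timd4*, *Cd5l*, *Marco*, *Nr1h3*, *Cd163*, *Emr1*, *Csf1r* and *Msr1*. They were found by the gene name that the array files give for each probe, and 15 of 55681 probes carried one of these names, or 10 of 34821 gene names. *Csf1r* had 3 probes, *Nr1h3*, *Emr1* and *Msr1* had 2 each, and the other 6 genes had 1. The values are log2 intensities of the mRNA on Agilent mouse arrays. All mice were male Balb/c of 6 to 8 weeks. TME cells came from livers of mice whose spleens had received C26 colon carcinoma cells, an established mouse line, and control cells from mice given the vehicle, and all liver cells were taken 14 days later and kept in culture for at most 24 hours. The 8 groups of 4 samples were control and TME endothelial cells, control and TME Ito cells (the stellate cells of the liver), control and TME Kupffer cells, the liver metastases (TM) and the primary tumors (TP). The fractions were prepared by density gradient after collagenase perfusion, and Kupffer cells were taken by adherence to plastic, so each fraction can hold other liver cells. The 4 samples of a group are biological replicates by the study's methods.

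Kupffer cells settle in the liver in the embryo and renew themselves there. They clear particles, bacteria and aged cells from the portal blood, for which they carry a set of scavenger and complement receptors. Their identity is kept by signals from the cells around them, among them CSF1 from stellate cells and Notch ligands and BMP from sinusoidal endothelium, which act through factors such as LXR alpha (encoded by *Nr1h3*), SPI-C and ID3. *Clec4f*, a C-type lectin that binds galactose-containing glycans, is in mice nearly restricted to Kupffer cells, and *Timd4*, a receptor for phosphatidylserine on dying cells, marks those of embryonic origin. *Emr1* (the F4/80 antigen, now *Adgre1*), *Csf1r* and *Msr1* are found on macrophages of many tissues.

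The 60 bases of the *Clec4f* probe are shown because *Clec4f* is the member held to be the most particular to Kupffer cells. The array files place it at chr6:83595281-83595339 on the minus strand of mm9, the build they name. This interval is slightly shorter than the printed sequence.

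Clec4f probe: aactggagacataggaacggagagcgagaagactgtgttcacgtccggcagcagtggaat

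Promoters from RefSeq (GRCm38.p6) were matched for 7 of the 10 genes. The 250 bases before the transcription start are printed, 5′ to 3′ on the gene's strand, for the 4 genes that held a searched motif. Whether these motifs bear on the levels of the members was not tested. Capitals mark the matches, on either strand, to GAGGAAG (PU.1), AGGTCA (the core of nuclear receptor sites such as those of LXR) and TGCTGA (the core of MAF sites).

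Clec4f, chr6:83656117-83656366, minus strand: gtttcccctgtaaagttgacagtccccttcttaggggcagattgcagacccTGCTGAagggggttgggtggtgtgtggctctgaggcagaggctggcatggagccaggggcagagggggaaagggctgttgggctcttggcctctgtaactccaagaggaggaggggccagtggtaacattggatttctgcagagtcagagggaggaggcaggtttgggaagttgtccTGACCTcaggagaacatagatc

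Timd4, chr11:46810549-46810798, plus strand: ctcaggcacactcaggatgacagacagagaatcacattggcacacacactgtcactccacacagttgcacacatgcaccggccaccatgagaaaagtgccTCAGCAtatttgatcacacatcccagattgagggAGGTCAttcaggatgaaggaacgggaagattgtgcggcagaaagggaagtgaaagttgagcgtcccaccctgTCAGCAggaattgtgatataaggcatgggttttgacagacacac

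Cd5l, chr3:87357631-87357880, plus strand: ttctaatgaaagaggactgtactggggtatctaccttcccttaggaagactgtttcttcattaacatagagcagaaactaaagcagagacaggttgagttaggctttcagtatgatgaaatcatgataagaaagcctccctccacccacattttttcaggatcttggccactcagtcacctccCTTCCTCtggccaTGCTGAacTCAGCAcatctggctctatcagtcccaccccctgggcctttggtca

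Marco, chr1:120505025-120505274, minus strand: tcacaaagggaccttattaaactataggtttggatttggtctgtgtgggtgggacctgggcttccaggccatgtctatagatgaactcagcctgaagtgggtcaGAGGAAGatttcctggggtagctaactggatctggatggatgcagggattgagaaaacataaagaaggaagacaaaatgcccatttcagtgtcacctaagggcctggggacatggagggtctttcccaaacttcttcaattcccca

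The PU.1 letters stood at -146 from the start of *Marco* and at -67 from that of *Cd5l*, and 10.6% of 32851 RefSeq promoters of the same length held them. AGGTCA was at -22 in *Clec4f* and at -116 in *Timd4*, against 14.02% of promoters. TGCTGA was at -199 in *Clec4f*, at -54 and -46 in *Cd5l* and at -150 and -44 in *Timd4*, against 16.1% of promoters. These matches of *Cd5l* did not overlap. *Nr1h3*, *Cd163* and *Vsig4* held none of these letters, and a pair of IRF cores, GAAA on both sides of any 2 bases, was in no member promoter and in 2.98% of all promoters.

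Several libraries bear on every result below. Control and TM samples were labelled with Cy3 and TME and TP samples with Cy5 on all arrays, and each control sample shared its array with the TME sample of the same number, so the dye and the TME cannot be told apart. Slide 1 carried the arrays of endothelial and Ito cells, and slide 2 those of Kupffer cells and tumors, so the slide and the difference between Kupffer cells and the other liver fractions cannot be told apart, whereas Kupffer cells and tumors, and endothelial and Ito cells, were compared within a slide. Over 17113 probes, the fourth Ito array and the fourth Kupffer array had TME minus control differences opposite to the mean of the other arrays of their cell type (r of -0.66 and -0.60). Whether control and TME are crossed on these 2 arrays was not tested, and the labels were kept as given. A crossing would turn the sign of their TME minus control values. It would also exchange their libraries between the control and TME groups. The means and spreads of the Ito and Kupffer groups, and every comparison with them, would then change. The library labelled control Ito replicate 4 was the highest of its group for 9 of the 10 members, the library labelled control Kupffer replicate 4 also for 9, and the library labelled TME Kupffer replicate 4 the lowest for 8. The lowest sample of its group for 9 members was replicate 2 in TME Ito cells and replicate 3 in control Kupffer cells, and TM replicates 2 and 3 had lower macrophage list means than TM replicates 1 and 4. Results are given with all libraries, and without these where that changed them.

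The labels were set against marker lists. All 14 endothelial genes were well above background in all endothelial, Kupffer and control Ito samples, so their detection did not tell these fractions apart. Their list means were 11.98 to 12.36 in control endothelial cells and 10.11 to 10.51 in control Kupffer cells. The 27 measured genes of a general macrophage list were above background in every liver sample, with list means of 11.34 to 11.36 in control endothelial, 12.25 to 13.24 in control Ito and 12.53 to 13.81 in control Kupffer cells. Stellate genes did not set the Ito fraction apart: their means were 8.70 to 9.14 in control Ito and 9.69 to 10.11 in control endothelial cells. Of the 16 stellate genes, 15 to 16 were well above background in control Ito, 14 to 15 in TME Ito and 15 to 16 in control endothelial samples. *Lrat*, the enzyme of retinoid storage, was so in 2 of 4 control Ito and 0 of 4 TME Ito samples. The 12 hepatocyte genes were highest in Ito cells (11.98 to 12.98 in control Ito against 9.37 to 10.97 in control Kupffer cells). In these bulk fractions fewer Kupffer cells and less RNA per cell cannot be told apart.

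**Figure D1:**
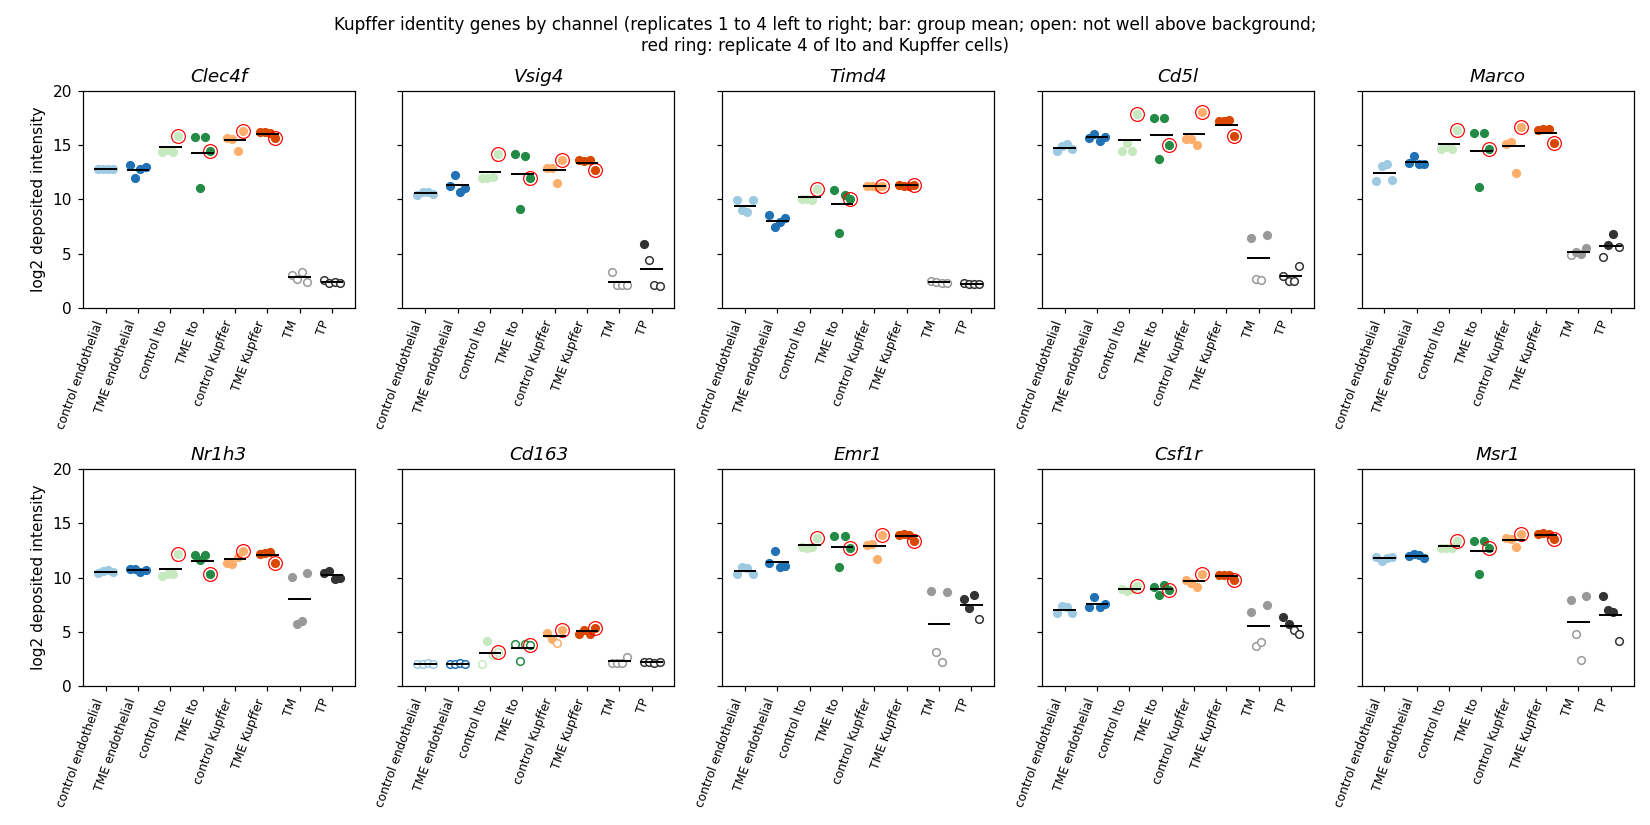
The log2 intensity of each Kupffer identity gene (1 panel per gene, its probe of highest variance) is plotted for the 4 samples of each of the 8 groups. Bars are group means, open circles are values not well above background, and red rings mark replicate 4 of Ito and Kupffer cells; for 9 of the 10 genes all liver samples are filled, and *Cd163* is filled in 8 of 24 liver samples.

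All 10 genes had their highest group mean in TME Kupffer cells. Without the fourth Ito and Kupffer arrays, TME Ito replicate 2 and control Kupffer replicate 3, *Vsig4* (14.10 against 13.60) and *Cd5l* (17.47 against 17.27) had higher means in TME Ito (n = 2) than in TME Kupffer cells (n = 3). Of the 10 genes, 9 were well above background in 24 of 24 liver samples, endothelial and Ito fractions included, and *Cd163* in 8 of 24. For 8 of the genes control Kupffer cells came next in order, and for *Marco* and *Emr1* control Ito cells did. The samples of control and TME Kupffer cells overlapped for every member, so the order of these 2 groups was not larger than their spread.

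*Clec4f* read 15.70, 15.58, 14.47 and 16.30 in control Kupffer cells, replicates 1 to 4, and 16.22, 16.20, 16.12 and 15.69 in TME Kupffer cells. It read 14.40, 14.55, 14.35 and 15.88 in control Ito and 15.77, 11.06, 15.72 and 14.45 in TME Ito cells. In control endothelial cells the 4 values were 12.81, 12.82, 12.80 and 12.79, and in TME endothelial cells 13.15, 11.996, 12.79 and 13.02. Every Kupffer sample lay above every endothelial sample, while Ito samples reached the Kupffer range in both conditions. None of the 8 tumor samples was well above background (2.29 to 3.36).

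*Timd4* was the member with the least spread in the adherent fraction, at 11.27, 11.29, 11.13 and 11.22 in control Kupffer cells and 11.36, 11.23, 11.26 and 11.32 in TME Kupffer cells. It read 10.02, 10.09, 9.94 and 10.96 in control Ito cells and 10.87, 6.92, 10.45 and 10.07 in TME Ito cells. Control endothelial cells gave 9.997, 9.02, 8.81 and 9.95, and TME endothelial cells 8.61, 7.43, 7.89 and 8.25. The Kupffer samples thus lay above all samples of the other fractions, and the control and TME endothelial samples did not overlap. The tumor samples stayed between 2.17 and 2.47, none well above background.

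*Vsig4*, the complement receptor CRIg, which captures opsonised bacteria from the blood, had means of 12.76 ± 0.90 (SD, n = 4) in control and 13.39 ± 0.42 in TME Kupffer cells. The Ito means were 12.55 ± 1.10 and 12.33 ± 2.35 and the endothelial means 10.58 ± 0.14 and 11.30 ± 0.67. Its single tumor value well above background was TP replicate 1, at 5.86.

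The scavenger receptors and the secreted scavenger protein followed. *Cd5l*, which encodes the macrophage protein AIM and is a target of LXR, read 15.59, 15.55, 15.06 and 18.10 in control Kupffer cells and 17.22, 17.26, 17.31 and 15.82 in TME Kupffer cells. Its endothelial samples came close to the Kupffer samples, at 14.46, 14.89, 15.13 and 14.61 in control and 15.71, 16.03, 15.36 and 15.78 in TME cells. The endothelial and Kupffer values of *Cd5l* overlapped in both conditions. *Marco*, a class A scavenger receptor for bacteria and particles, read 15.13, 15.31, 12.46 and 16.72 in control Kupffer cells, 16.41, 16.52, 16.51 and 15.23 in TME Kupffer cells, 11.72, 13.10, 13.26 and 11.75 in control endothelial and 13.38, 13.97, 13.28 and 13.31 in TME endothelial cells. Control Kupffer replicate 3 was the only Kupffer sample of *Marco* within the endothelial range. *Msr1*, the class A scavenger receptor of modified lipoproteins, had means of 13.48 ± 0.49 and 13.95 ± 0.25 in control and TME Kupffer cells, 12.90 ± 0.31 and 12.45 ± 1.45 in Ito cells and 11.80 ± 0.16 and 12.04 ± 0.15 in endothelial cells (n = 4 each).

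*Cd163*, the receptor for haptoglobin-hemoglobin complexes, was dim. It was well above background in 3 of 4 control Kupffer samples (4.87, 4.37, 3.95 and 5.18, replicate 3 not above) and in 4 of 4 TME Kupffer samples (4.81, 5.20, 4.82 and 5.37). One control Ito sample, replicate 2 at 4.17, was above background, and no endothelial, TME Ito or tumor sample was. Its differences are therefore known only as bounds.

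*Nr1h3*, the lipid-sensing nuclear receptor LXR alpha, had means of 11.72 ± 0.55 and 12.05 ± 0.47 in control and TME Kupffer cells, 10.78 ± 0.94 and 11.55 ± 0.82 in Ito cells and 10.57 ± 0.09 and 10.71 ± 0.11 in endothelial cells (n = 4 each). It was also well above background in 8 of 8 tumor samples. *Csf1r*, the receptor of CSF1 on which macrophages depend for survival, read 9.82, 9.52, 9.12 and 10.33 in control Kupffer cells, 10.22, 10.28, 10.26 and 9.82 in TME Kupffer cells, 6.73, 7.43, 7.29 and 6.76 in control endothelial cells and 7.34, 8.25, 7.26 and 7.58 in TME endothelial cells. Its Kupffer and endothelial samples were apart in both conditions. *Emr1* had means of 12.94 ± 0.94 and 13.82 ± 0.27 in control and TME Kupffer cells, 13.03 ± 0.44 and 12.86 ± 1.36 in Ito cells and 10.62 ± 0.35 and 11.47 ± 0.65 in endothelial cells (n = 4 each).

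The first comparison asks how far the Kupffer fraction exceeded the endothelial fraction. In control cells, 5 of the 10 genes were higher in Kupffer cells at a limma adjusted p under 0.05, and 8.95% of all probes were called higher. *Cd163* was at least 1.41-fold higher, a bound from values after loess and Aquantile scaling. Its adjusted p of 2.19e-06 is from the limma fit to the deposited levels. *Csf1r* was higher by 2.64 ± 0.53 (SE) on the log2 scale, 6.25-fold (adjusted p = 0.000583), *Clec4f* by 2.71 ± 0.62, 6.52-fold (adjusted p = 0.00192), *Timd4* by 1.78 ± 0.49, 3.44-fold (adjusted p = 0.00917), and *Marco* by 2.45 ± 0.82, 5.45-fold (adjusted p = 0.0327). The differences of *Vsig4* (2.17 ± 0.84, adjusted p = 0.0674), *Emr1* (2.32 ± 0.99, adjusted p = 0.104) and *Msr1* (1.69 ± 0.88, adjusted p = 0.201) did not pass, and neither did those of *Cd5l* (1.31 ± 0.92) and *Nr1h3* (1.16 ± 0.71). No member was lower (12.1% of all probes), and all 10 differences were positive, with a median of 2.25 over the members and of -0.00 over all probes. The samples of the 2 groups did not overlap for 8 members, with higher Kupffer values, as for 12.7% of all probes.

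In TME cells the same 5 genes, *Clec4f*, *Timd4*, *Marco*, *Cd163* and *Csf1r*, were higher in Kupffer cells, against 9.64% of all probes, and 0 were lower, against 12.2%. *Clec4f* was higher by 3.32 ± 0.62, 9.98-fold (adjusted p = 0.000215), and *Timd4* by 3.25 ± 0.49, 9.49-fold (adjusted p = 1.83e-05). *Marco* was higher by 2.68 ± 0.82 (adjusted p = 0.0177), *Csf1r* by 2.54 ± 0.53 (adjusted p = 0.000803), and *Cd163* at least 1.54-fold (adjusted p = 2.30e-07). The median over the members was 2.44. The groups did not overlap for 9 members, *Cd5l* being the exception, as for 16.2% of all probes.

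These counts depend on which groups enter the fit. The fit to all 8 groups takes a single spread for each probe, and some members varied most among the TM samples (SD of 3.51 for *Emr1* and 2.79 for *Msr1*, against 0.35 and 0.16 in control endothelial cells). With only the groups compared in the fit, 8 members passed in control cells, against 9.29% of all probes, and 10 in TME cells, against 14.3%. *Vsig4*, *Nr1h3*, *Emr1* and *Msr1* then passed in control cells, with adjusted p of 0.00883, 0.0176, 0.0101 and 0.00266, and *Marco* did not (0.0984). The 2 other *Csf1r* probes were called like the first in both conditions, and the second *Emr1* probe was called where the first was not (2.43 ± 0.77, adjusted p = 0.0243 in control cells; 2.48 ± 0.77, adjusted p = 0.0201 in TME cells). The second probes of *Nr1h3* and *Msr1* were not called, like the first. Without array 4 of the Ito and Kupffer cells, *Marco* in control cells was at 1.84 (adjusted p = 0.146) and no longer passed. At the methods' thresholds, an adjusted p under 0.001 and 4-fold, 2 members were higher in control cells (1.89% of all probes) and 4 in TME cells (1.93%).

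**Figure D2:**
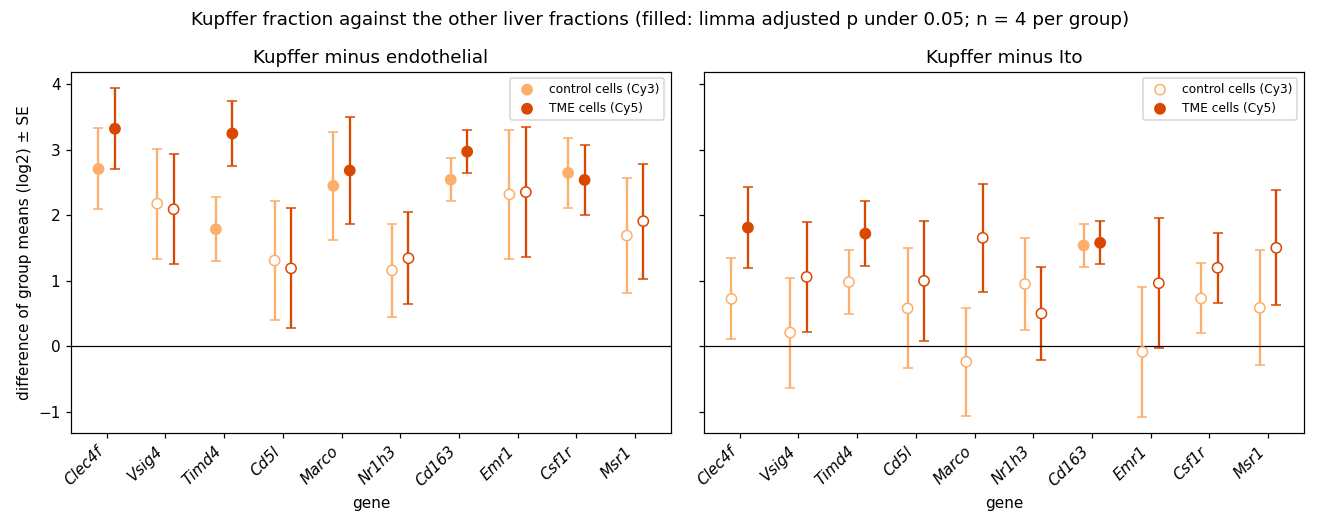
Differences of group means on the log2 scale (± SE of the limma fit) are shown for each gene between Kupffer and endothelial cells and between Kupffer and Ito cells, for control (light) and TME (dark) samples, n = 4 per group; filled points have an adjusted p under 0.05. All differences from endothelial cells are above 0, with 5 filled in each condition, whereas those from Ito cells are smaller, with 1 filled in control and 3 in TME cells.

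Against the Ito fraction the differences were smaller. In control cells only *Cd163* was higher in Kupffer cells (1.54 ± 0.33 in the fit, adjusted p = 0.00161, 3 of 4 Kupffer and 1 of 4 Ito samples well above background), that is 1 of 10 genes against 7.24% of all probes, and 0 were lower, against 7.57%. *Timd4* differed by 0.98 ± 0.49 (adjusted p = 0.214) and was the member whose control Kupffer and Ito samples did not overlap, against 9.25% of all probes. *Clec4f* differed by 0.72 ± 0.62 and *Vsig4* by 0.21 ± 0.84, and *Marco* and *Emr1* were on the Ito side, at -0.24 ± 0.82 and -0.09 ± 0.99. The median over the members was 0.65. Leaving out control Kupffer replicate 3 turned both of the latter, to 0.57 for *Marco* and 0.33 for *Emr1*. Without replicate 1, *Cd163* no longer passed (1.11, adjusted p = 0.0830). Without TME Ito replicate 2, which enters only the shared spread, *Timd4* passed with the same difference (adjusted p = 0.00651), and without the fourth Ito and Kupffer arrays, TME Ito replicate 2 and control Kupffer replicate 3, *Clec4f* (1.21, adjusted p = 0.00201) and *Timd4* (1.27, adjusted p = 0.00549) passed beside it.

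In TME cells 3 genes were higher in Kupffer than in Ito cells, against 7.74% of all probes: *Clec4f* by 1.81 ± 0.62 (adjusted p = 0.0473), *Timd4* by 1.72 ± 0.49 (adjusted p = 0.0172) and *Cd163* by at least 1.33-fold (adjusted p = 0.00128). None was lower, against 7.46%. The groups did not overlap for 4 members, *Timd4*, *Cd163*, *Csf1r* and *Msr1*, as for 11.9% of all probes. TME Ito replicate 2, with *Clec4f* at 11.06 and *Timd4* at 6.92 was the lowest of its group for both. Without replicate 2 the differences were 0.70 and 0.85 (adjusted p = 0.402 and 0.0783), and *Cd163* alone passed (adjusted p = 0.0117). *Vsig4* (1.06 ± 0.84 with all libraries) was then at -0.07. Without the library TME Ito replicate 2 alone, *Timd4* (0.83, adjusted p = 0.0382) and *Cd163* (adjusted p = 0.00658) passed, and *Vsig4* was at -0.01. In that library the list mean was 8.14 for epithelial genes (5.06 to 5.45 in the other TME Ito samples), 10.04 for stellate genes (8.71 to 9.14) and 8.75 for endothelial genes (10.08 to 10.72); their part in these values was not tested. Of the *Csf1r* probes, 1 was called higher in TME Kupffer cells (0.74 ± 0.18, adjusted p = 0.00543) and the other 2 were not (1.20, adjusted p = 0.143, and 1.04, adjusted p = 0.0612).

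Between the other fractions, which shared a slide, 4 genes were lower in control endothelial than in control Ito cells, against 4.17% of all probes, and 0 were higher, against 5.72%. *Csf1r* was lower by 1.92 ± 0.53 (difference -1.92, adjusted p = 0.0199), *Marco* by 2.69 ± 0.82 (-2.69, adjusted p = 0.0348) and *Clec4f* by 1.99 ± 0.62 (-1.99, adjusted p = 0.0392). *Cd163* was also called (adjusted p = 0.0497), with 1 of 8 samples well above background. All 10 differences were negative, with a median of -1.51, and 6 genes did not overlap, against 9.95% of all probes. Without array 4 of the Ito and Kupffer cells 0 members passed, and with the endothelial and Ito groups alone in the fit 6 did, against 5.68% of all probes.

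The tumors come next. All 10 genes were higher in control Kupffer cells than in TM, against 16.2% of all probes, and higher in TME Kupffer cells than in TP, against 17.8%. No member was lower, against 23.3% and 25.7%. The groups did not overlap for any member, as for 13.9% and 18.0% of all probes with higher Kupffer values. *Clec4f* exceeded its TM level in control Kupffer cells by at least 525-fold (adjusted p = 2.66e-15). In TME Kupffer cells it exceeded its TP level by at least 837-fold (adjusted p = 5.19e-16). For *Timd4* the bounds were 33.7-fold and 36.9-fold, for *Vsig4* 99.9-fold over TM, for *Cd5l* 1986-fold over TP, and for *Cd163* 1.53-fold and 1.56-fold. For these bounds the dim side was taken, per array, as the weakest signal still called above background (or the probe's own, where higher), after loess and Aquantile scaling, so they are open to dye bias. The adjusted p printed with any such bound is from the limma fit to the deposited levels and does not test the bound. The remaining genes were measured on both sides at least in part. *Marco* was higher by 9.77 ± 0.82 on the log2 scale over TM and by 10.43 ± 0.82 over TP, and *Csf1r* by 4.18 ± 0.53 and 4.64 ± 0.53. The other 2 *Csf1r* probes differed less, by 3.54 ± 0.37 and 0.99 ± 0.18 over TM (adjusted p = 8.72e-09 and 4.74e-05) and by 4.09 ± 0.37 and 1.55 ± 0.18 over TP (adjusted p = 5.02e-10 and 3.71e-08). *Nr1h3* was higher by 3.66 ± 0.71 over TM (adjusted p = 9.92e-05) and by 1.83 ± 0.71 over TP (adjusted p = 0.0372). Over TM, *Nr1h3* did not pass by the methods' t-test (adjusted p = 0.0809) or with only the groups compared (adjusted p = 0.0529). Without TM replicates 2 and 3 all 10 members were still called, with *Nr1h3* at 1.497 ± 0.47 (adjusted p = 0.0124), *Csf1r* at 2.56, *Emr1* at 4.20 and *Msr1* at 5.35.

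In the tumors the members differed in whether they gave signal. *Clec4f*, *Timd4* and *Cd163* were well above background in 0 of 8 tumor samples, *Vsig4* in 1 and *Cd5l* in 2, whereas *Marco*, *Emr1* and *Msr1* were so in 5, *Csf1r* in 4 and *Nr1h3* in 8. The 4 for *Csf1r* hold for its probe of highest variance, and its other 2 probes were well above background in 8 of 8. *Emr1* read 8.77, 3.13, 2.24 and 8.69 in TM and 8.02, 7.19, 8.41 and 6.16 in TP. *Msr1* read 7.93, 4.81, 2.42 and 8.33 in TM and 8.31, 7.00, 6.80 and 4.20 in TP. *Nr1h3* read 10.03, 5.73, 6.05 and 10.43 in TM and 10.45, 10.58, 9.92 and 9.94 in TP. TM replicates 1 and 4 thus read 7.93 or more for these 3 genes, and TM replicates 2 and 3 read 6.05 or less. The mean of the 27 macrophage genes was 8.06, 5.96, 5.20 and 8.68 in the TM samples and 8.61, 7.67, 7.46 and 6.23 in the TP samples; its part in these values was not tested.

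Between TP and TM, limma called 0 members higher and 0 lower, against 2.05% and 0.961% of all probes; at an unadjusted p under 0.05 there was 1 higher, *Nr1h3* (8.61% of all probes), and the methods' t-test called 0. The difference of *Cd5l* was carried by TM replicates 1 and 4, at 6.49 and 6.69, well above background, while the other TM and all TP samples were not.

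For the effect of the tumor on the liver cells, TME and control samples were compared within each cell type. With all libraries, all 8 groups in the fit and no block for the array, no member passed in any cell type. For endothelial cells limma called 0 in each direction (0.578% and 0.564% of all probes). The counts were also 0 in Ito cells (0.269% and 0.0198% of all probes) and 0 in Kupffer cells (0.372% and 0.0647%). At an unadjusted p under 0.05 there was 1 member in endothelial cells, *Timd4*, lower (3.88% of all probes), and 0 in the other cells, and the methods' t-test called 0 throughout. Medians over the members were 0.40, -0.19 and 0.51. The Ito median was 0.51 without TME Ito replicate 2, 0.09 without array 4 of the Ito and Kupffer cells and 1.18 without these and control Kupffer replicate 3, and the Kupffer median was 0.25 without control Kupffer replicate 3 and 0.86 without array 4.

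**Figure D3:**
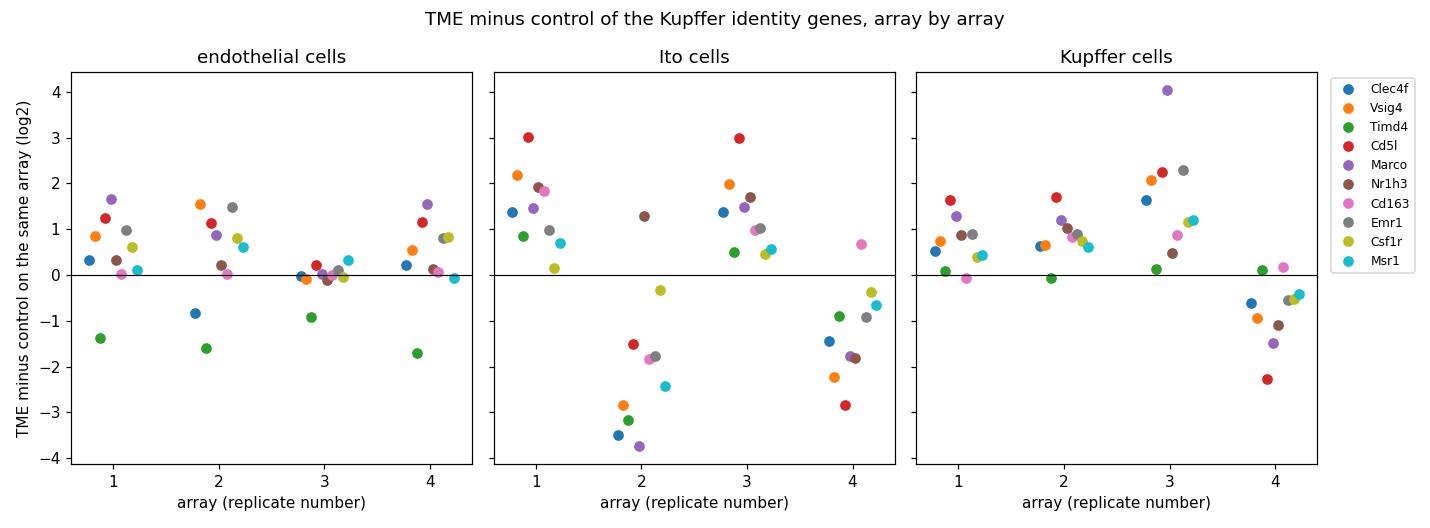
TME minus control on the log2 scale is plotted for each Kupffer identity gene on each of the 4 arrays of endothelial, Ito and Kupffer cells; the samples of an array differ in dye. Kupffer arrays 1 to 3 have 9, 9 and 10 genes above 0 and array 4 has 2; Ito arrays 1 and 3 have 10 and arrays 2 and 4 have 1; *Timd4* is below 0 on all endothelial arrays.

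In Kupffer cells, 9, 9 and 10 of the 10 members were higher in the TME sample on arrays 1, 2 and 3, with median differences of 0.62, 0.79 and 1.43, and 2 of 10 on array 4, with -0.57. *Cd5l* differed by 1.63, 1.71, 2.25 and -2.28 on the 4 arrays, *Marco* by 1.29, 1.20, 4.05 and -1.49, and *Emr1* by 0.89, 0.89, 2.29 and -0.54. *Timd4* stayed within 0.13 of no difference on all 4 (0.09, -0.06, 0.13 and 0.10). On the same arrays the mean of the 27 macrophage genes was 13.32, 13.21, 12.53 and 13.81 in control Kupffer cells. It was 13.75, 13.72, 13.74 and 13.28 in TME Kupffer cells, and its part in the members' values was not tested. Without array 4, *Marco* was at 2.18 (adjusted p = 0.221) and *Cd5l* at 1.86 (adjusted p = 0.339) in limma, and still 0 members passed.

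The Ito arrays split evenly. All 10 members were higher in the TME sample on arrays 1 and 3 (medians of 1.42 and 1.20) and 1 of 10 on arrays 2 and 4 (-2.13 and -1.17). *Cd5l* differed by 3.01, -1.51, 2.98 and -2.85, and *Clec4f* by 1.37, -3.49, 1.37 and -1.43. *Nr1h3* was the exception on array 2, at 1.29, and *Cd163* on array 4. On arrays 1 to 4 the mean of the 27 macrophage genes was 12.27, 12.25, 12.26 and 13.24 in control Ito cells. It was 13.17, 11.33, 13.19 and 12.32 in TME Ito cells, and its part in the members' values was not tested. Without the fourth Ito and Kupffer arrays, TME Ito replicate 2 and control Kupffer replicate 3, 2 members were called higher in TME Ito cells, *Clec4f* (1.31, adjusted p = 0.00153) and *Cd5l* (2.75, adjusted p = 0.0450), against 6.12% of all probes. These libraries were left out after their values were seen.

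In endothelial cells *Timd4* and other members went opposite ways. *Timd4* was lower in the TME sample on 4 of 4 arrays (-1.38, -1.59, -0.92 and -1.70), with a fitted difference of -1.40 ± 0.49 (limma adjusted p = 0.272). It was called lower without replicate 2 (-1.33, adjusted p = 0.0364) and without TME Ito replicate 2 alone (adjusted p = 0.00200), a library of another cell type that enters the shared spread. With the shared array as a block it was also called lower (-1.40 ± 0.15, adjusted p = 0.0295), as were 1.62% of all probes, and with the array as a random block it was not (adjusted p = 0.206). *Cd5l* (1.26, 1.14, 0.23 and 1.17), *Marco* (1.66, 0.87, 0.02 and 1.56) and *Emr1* (0.99, 1.48, 0.11 and 0.81) were higher in the TME sample on 4 of 4 arrays. Their fitted differences, 0.95 ± 0.92, 1.03 ± 0.82 and 0.85 ± 0.99, did not pass in the fit to all 8 groups. With only the groups compared in the fit, *Cd5l* passed as higher in TME endothelial cells, and *Marco* and *Emr1* did not. Control and TME samples did not overlap for these 4 genes, 3 higher and 1 lower, against 7.05% and 6.0% of all probes. *Clec4f* went both ways (0.34, -0.83, -0.01 and 0.23). Beside this, the neutrophil list mean was 5.13 to 5.70 in control and 6.59 to 8.10 in TME endothelial cells. Means of the monocyte and recruited macrophage list were 8.44 to 8.53 and 8.97 to 10.19 there, those of the endothelial list 11.98 to 12.36 and 11.19 to 11.76, and those of the hepatocyte list 10.01 to 10.25 and 9.19 to 9.47, with no overlap between control and TME. Beside these, *Clec1b*, a lectin receptor of Kupffer and sinusoidal endothelial cells, was lower in TME endothelial cells (-1.87 ± 0.40, adjusted p = 0.0136); the part of any of these in the members' values was not tested.

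Whether the change with TME differed between cell types was tested in the same fit. In limma 0 of 10 genes passed in either direction for Kupffer against endothelial cells (0.0629% and 0.018% of all probes) or for Kupffer against Ito cells (0.0018% each way), and the methods' t-test also called 0. At the unadjusted threshold 1 passed, *Timd4* in Kupffer against endothelial cells (1.46 ± 0.70), as did 2.09% of all probes.

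The members varied together. Over the 24 liver samples, Pearson's r between member pairs had a median of 0.80 over 45 pairs (0.51 to 0.96), and r of their deviations from the group means had a median of 0.73 (0.05 to 0.96). The mean of the members followed the mean of the 27 macrophage genes over these samples (r = 0.984). These points share libraries, slides and the macrophage content of a fraction, so the correlations describe these samples.

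**Figure D4:**
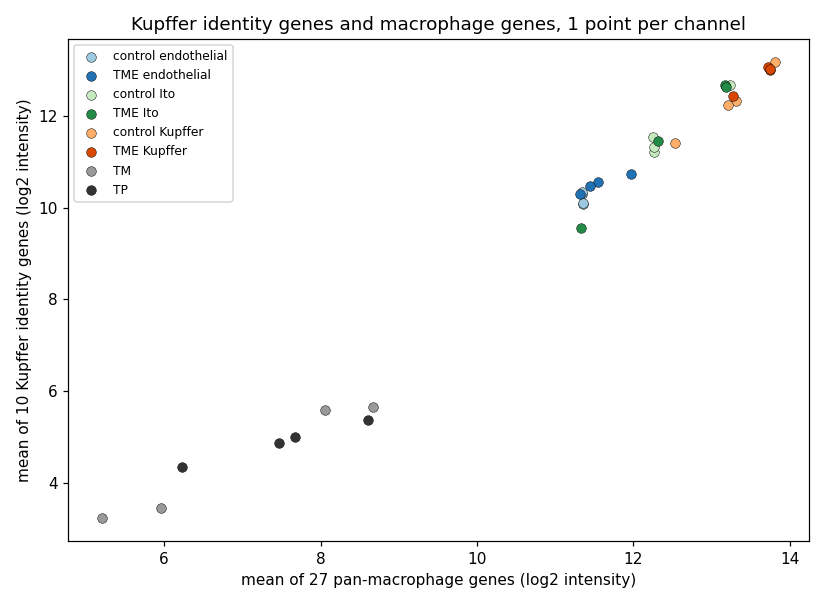
Each point is a sample, with the mean log2 intensity of the 27 macrophage genes on the x axis and that of the 10 Kupffer identity genes on the y axis. Endothelial samples lie at the lower left and Kupffer samples at the upper right of the liver samples, with Ito samples between and among them except TME Ito replicate 2, whose members mean of 9.57 is the lowest of the liver samples, and the tumor samples lie well below.

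Over all 32 samples, among 21721 probes well above background on at least 8 of them, the 5 named genes outside the members most like *Clec4f* were *Il1a* (r = 0.994), *Rasgrp1* (0.993), *Slfn1*, *H2-Aa* and *Ms4a4c* (0.992 each). Within the 24 liver samples their r with *Clec4f* was 0.94, 0.91, 0.93, 0.88 and 0.94. Those most like *Emr1* were *Ms4a7* (0.990), *Smpdl3a* (0.989), *Igf1* (0.984), *Clec4e* (0.981) and *Tyrobp* (0.981), with 0.93 to 0.96 in the liver samples. *H2-Aa* is a class II antigen-presenting gene and *Tyrobp* the adaptor of myeloid receptors.

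The genes around the members were read from lists. Of the 27 macrophage genes, 16 were higher and 1 lower in control Kupffer than in control endothelial cells, with a median of 2.25, beside -0.00 over all probes, and 17 were higher and 1 lower in TME cells. Among all probes 8.95% were higher and 12.1% lower in the control and 9.64% and 12.2% in the TME comparison. These shares also stand for the following lists where Kupffer and endothelial cells are compared. *Cd14*, the lipopolysaccharide coreceptor, was higher by 3.65 ± 0.31 (adjusted p = 3.29e-09) and *Slc11a1*, a metal transporter of phagosomes, by 3.07 ± 0.40 (adjusted p = 2.59e-06) in control cells, and *Clec1b* was the lower gene (-3.02 ± 0.40). Against control Ito cells, 5 were higher and 2 lower in control Kupffer cells, against 7.24% and 7.57% of all probes. *Itgam*, the integrin of the complement receptor CR3, was higher by 2.37 ± 0.44 (adjusted p = 0.000386), and *Hmox1*, heme oxygenase, was at -2.42 ± 0.28 (adjusted p = 1.56e-06).

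Of 22 measured genes of the regulators and niche signals, 4 were higher and 4 lower in control Kupffer than in control endothelial cells. The receptor chain *Csf2ra* was higher (2.63 ± 0.54, adjusted p = 0.000731), and *Dll4*, the Notch ligand of endothelium (-3.19 ± 0.43, adjusted p = 4.33e-06), and *Gdf2*, which encodes BMP9 (-2.10 ± 0.48, adjusted p = 0.00179), were lower. *Spic*, the factor of iron-recycling macrophages, had means of 15.32 ± 0.55 in control Kupffer, 15.68 ± 0.62 in control Ito and 13.08 ± 0.46 in control endothelial cells, and was not well above background in any tumor sample. Of the 12 targets of LXR, the factor that *Nr1h3* encodes, 1 was higher and 1 lower in control Kupffer against control endothelial cells, with a median of 0.38. *Abcg1*, a cholesterol exporter, was higher (1.56 ± 0.41, adjusted p = 0.00620) and *Scd2*, a fatty acid desaturase, lower (-1.48 ± 0.49, adjusted p = 0.0313). In TME cells *Apoe* (1.47 ± 0.44, adjusted p = 0.0155), *Abcg1* and *Lpcat3* were higher, and 1 was lower. Of 10 other scavenger receptors, 0 were higher and 1 lower in control Kupffer than in control endothelial cells by limma, the lysosomal receptor *Scarb2* (-1.84 ± 0.21, adjusted p = 2.95e-07), with a median of -0.21. Of 17 monocyte and recruited macrophage genes, 7 were higher and 0 lower in that comparison, among them *Itgal* (2.51 ± 0.30, adjusted p = 8.58e-07), *Cx3cr1* (3.09 ± 0.42) and *Gpnmb* (2.77 ± 0.54).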

How the data were processed

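RNA of 4 samples per group was hybridised as 16 two-colour Agilent arrays and read with Feature Extraction 10.7.3.1, which subtracts background and balances dyes. The levels are the intensity values that the authors deposited as quantile-normalized processed signal, on a linear scale; their log2 was taken here. Deposited columns followed a quantile normalization of the scanner signal (r of at least 0.999884), and their medians were 4.21 to 4.30. Per channel, 38.4% to 57.1% of spots were well above background and 0 were saturated, and the number of arrays limits the precision. Each gene was read by its probe of highest variance over the 32 samples. limma 3.58.1 (R 4.3.3) was fitted to all 8 groups and 55681 probes, with Benjamini-Hochberg adjustment over all probes and a call at an adjusted p under 0.05. The fit was tested on simulated data. All 10 members are named by rule, and beside them up to 3 genes of each list and comparison with the lowest adjusted p and the 5 genes most like *Clec4f* and *Emr1*; *Lrat* and the levels of *Spic* were chosen after their values were seen. The equal-variance test per probe that the methods name is called the methods' t-test. Alternatives were the scanner signal, normexp correction (offset 50), loess with Aquantile, the 75th percentile, a filter on dim probes, the groups in the fit, the test, the threshold, the probe, blocks, and samples left out. The members and lists were chosen with earlier results of these data known.

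Lists not described above were erythroid (5 genes), epithelial (7), lymphocyte (10) and neutrophil (10). In control Kupffer against control endothelial cells, 1 erythroid gene and 2 neutrophil genes were higher, against 8.95% of all probes. In the same comparison 2 epithelial genes and 1 lymphocyte gene were lower, against 12.1%.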

Additional observations from a re-analysis of the deposited data

Results flagged for a closer look

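Each member was read in each of the 8 groups, which gives 80 sets of 4 samples. In 17 of them, the sample at the edge stood apart from the other 3 by more than Dixon's critical value. Chance gives this in about 1 in 20 independent sets. These sets share libraries and the members varied together, so they were not independent. Control Ito replicate 4 and TME Kupffer replicate 4 gave most of the 17. All values are log2 intensities, with the range of the other 3 samples after each.

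In control Ito replicate 4, the high sample, *Clec4f* read 15.88 (14.35 to 14.55), *Vsig4* 14.21 (11.97 to 12.05), *Timd4* 10.96 (9.94 to 10.09) and *Marco* 16.39 (14.65 to 14.86). In the same library *Nr1h3* read 12.17 (10.17 to 10.38), *Emr1* 13.68 (12.74 to 12.87) and *Msr1* 13.36 (12.71 to 12.78). In TME Kupffer replicate 4, the low sample, *Vsig4* read 12.75 (13.58 to 13.62), *Cd5l* 15.82 (17.22 to 17.31) and *Marco* 15.23 (16.41 to 16.52). There *Nr1h3* read 11.35 (12.22 to 12.37), *Emr1* 13.41 (13.91 to 13.99) and *Csf1r* 9.82 (10.22 to 10.28). The neutrophil list mean was 7.91 in control Ito replicate 4 against 4.90 to 5.41 in the others, and 5.98 in TME Kupffer replicate 4 against 7.38 to 7.43. On the same arrays it was 5.41 in TME Ito replicate 4 against 7.14 to 8.89, and 7.68 in control Kupffer replicate 4 against 5.82 to 6.21. The part of this list in the members' values was not tested.

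*Marco* read 13.97 in TME endothelial replicate 2 (13.28 to 13.38). Another 3 values lay at or near background, namely *Cd163* at 2.34 in TME Ito replicate 2 (3.80 to 3.88), *Cd163* at 2.71 in TM replicate 4 (2.13 to 2.16) and *Vsig4* at 3.32 in TM replicate 1 (2.08 to 2.11).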

How the results depend on the processing

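The cause of the changes below was not tested, and the settings that leave out libraries that stand apart were chosen after seeing the data. Counts of members called higher in Kupffer than in endothelial cells are given for control and TME cells in turn. They were 8 and 8 with normexp and quantile scaling, and 8 and 8 with normexp, loess and Aquantile. With only the groups compared they were 8 and 10, against 9.29% and 14.3% of all probes. The methods' t-test gave 8 and 9, and leaving out TM replicates 2 and 3 gave 8 and 8. With an adjusted p under 0.001 and 4-fold, the control count was 2 (1.89% of all probes). In this section, a count without a share of all probes beside it is not read as a result about the members. Control Kupffer minus control Ito cells gave 0 by the t-test and 0 at that threshold, 2 without TME Ito replicate 2, and 3 without that library, the fourth Ito and Kupffer arrays and control Kupffer replicate 3. TME Kupffer minus TME Ito cells gave 1 by the t-test, 0 at that threshold and 1 without these 6 libraries. Members lower in control endothelial than in control Ito cells numbered 0 at that threshold, 2 with the replicate block and 0 without the fourth arrays. In TME minus control endothelial cells 1 member, *Cd5l*, was higher with only the groups compared, and 1, *Timd4*, was lower with the replicate block, without TME Ito replicate 2 and without the 6 libraries. TME minus control Ito cells gave 2 higher without the 6 libraries, and TP minus TM gave 1 lower without TM replicates 2 and 3.

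Leaving out a replicate number in turn, or the libraries named above other than TM samples, the counts ran from 4 to 6 and 4 to 6 for Kupffer minus endothelial cells (control and TME), 0 to 3 and 1 to 3 for Kupffer minus Ito cells, 0 to 5 for members lower in control endothelial than Ito cells, 0 to 1 for those lower in TME endothelial cells, 0 to 2 for those higher in TME Ito cells, 9 to 10 for TME Kupffer minus TP, and 0 to 1 for those higher in TP. Members highest in a Kupffer group numbered 9 to 10 without a replicate number and 8 without the 6 libraries, where *Vsig4* and *Cd5l* were highest in TME Ito cells.

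Values that turned sign were none of them called. *Cd163* in TME minus control endothelial cells was -0.022 with normexp and quantile and -0.027 with loess. *Vsig4* ran from -0.045 to 0.91 in control Kupffer minus Ito cells and from -0.50 to 1.59 in TME cells, *Marco* from -0.48 to 0.57 and *Emr1* from -0.24 to 0.33 in control cells, *Cd5l* from -0.21 to 1.41 in TME cells, and *Clec4f* from -0.20 to 0.18 in TME minus control endothelial cells. The other results were counted once for each member, comparison and alternative setting. Of these, 58 passed under that alternative and not in the fit reported, and 69 passed in the fit reported and not under that alternative. The remaining 1538 kept their direction and their side of the threshold.

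The correlation of same-numbered samples' deviations from their group means ran from -0.64 to 0.67 and was over 0.1 for all numbers in 1 of 28 pairs of groups, control Ito and control Kupffer cells (0.10, 0.16, 0.21 and 0.67), which come from separate arrays and slides; with the replicate block that comparison again gave 1 member higher. The replicate block also lowered the count of members lower in control endothelial than in control Ito cells. It added *Timd4* as lower in TME than in control endothelial cells, both as given above. The remaining counts of members changed by no more than 1.5 times.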
